A study of Homo sapiens with 33 samples.

Results

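The genes that build, fill and carry major histocompatibility complex (MHC) class I molecules were followed in urothelial carcinoma cells treated with, made resistant to and then withdrawn from the FGFR inhibitor PD173074. The 9 genes were HLA-B, HLA-E and HLA-F (heavy chains), B2M (the light chain), PSMB8 and PSMB9 (immunoproteasome subunits), TAP1 and TAP2 (the peptide transporter) and TAPBP (tapasin). They were chosen by symbol for their place in this pathway, with earlier results of these data known, from 22465 genes that had a probe set annotated to exactly 1 symbol. For each gene the brightest of its probe sets, by mean over all 33 arrays, was read, and the 9 symbols had 58 probe sets between them.

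MHC class I molecules display short peptides from the inside of a cell to CD8+ T cells. Peptides are cut by the proteasome, which takes on the immunoproteasome subunits when cells are exposed to interferon, and are pumped into the endoplasmic reticulum by TAP1 and TAP2, where tapasin helps to load them onto a heavy chain paired with beta-2 microglobulin. HLA-B is a classical heavy chain that presents peptides to T cells. HLA-E presents peptides from the leader sequences of other class I chains to NKG2 receptors of natural killer cells, and HLA-F is a non-classical heavy chain. Interferon, NF-kappaB and NLRC5, a relative of the class II transactivator, are known inducers of these genes, and tumour cells are known to lower them.

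RT112 and RT4 are human bladder cancer cell lines, both driven by an FGFR3-TACC3 fusion. The 33 arrays were 11 conditions of 3 arrays, 24 arrays of RT112 and 9 of RT4. Untreated parental cells of both lines and parental RT112 exposed to PD173074 for 24 h (the acute treatment, at 1 µM where immunoblots of such cells are described, with no dose given for the arrays) were set beside derivatives selected by long-term culture in the drug. The RT112 derivatives R1 and R3 and the RT4 derivative R1 were kept in 1 µM PD173074 and the RT112 derivative R2 in 2 µM, and each was also cultured for 4 to 6 passages without drug. Each derivative is 1 selected line. R3 is a mixed culture in which the study found an activating HRAS mutation in most, but not all, cells. The study attributed the resistance of R3 to this mutation. Nothing in the sources says whether the 3 arrays of a condition came from separate cultures, so p-values measure the spread between these arrays, which may be technical. Values are log2 signals, and a difference of 1 is a doubling of signal. A gene passed at a limma adjusted p under 0.01, adjusted over all 22465 genes, the level named in the study's methods. Comparisons of RT112 cells with untreated parental RT112 cells all used the same 3 parental arrays.

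Array medians lay between 4.86 and 5.08, and a signal near them gives only a lower limit on a difference. All arrays carried the urothelial and epithelial programme, with 16 of 18 markers at a mean over 8 and an array mean of 10.65 to 12.41 for the list. The 17 immune cell markers had array means of 4.51 to 4.76, with PTPRC, the pan-leukocyte gene, at 4.24 to 4.45, and none had a mean over 8. The 8 endothelial markers had array means of 4.57 to 4.85. The 10 fibroblast markers had array means of 4.73 to 6.35, with LUM alone having a mean over 8 and ranging from 4.19 to 13.79, and the list was highest in R1 in drug, at a condition mean of 6.30. Several arrays stood apart within their condition when each gene was set against its condition mean and 8 class I genes (all but TAP2) were averaged. R1 in drug replicate 3 lay 0.38 below, R2 in drug replicate 1 lay 0.33 above and replicate 3 was at -0.33, R3 in drug replicate 3 lay 0.43 above and replicate 1 was at -0.35, and RT4 parental replicate 1 was at -0.29.

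The genes sit mostly together in the genome. On GRCh38.p14 as annotated by RefSeq, HLA-F (chr6:29723434-29738532), HLA-E (chr6:30489509-30494194) and HLA-B (chr6:31353875-31357179) lie towards the telomere of the MHC on the short arm of chromosome 6. TAP2 (chr6:32821831-32838739), PSMB8 (chr6:32840717-32844679), TAP1 (chr6:32845209-32853704) and PSMB9 (chr6:32854192-32859851) lie side by side in the class II region, TAPBP (chr6:33299694-33314078) lies beyond them, and B2M (chr15:44711517-44718145) is on chromosome 15. Promoter windows from RefSeq, 250 bases before to 50 after a start site and 300 bases long, were at hand for 8 of the 9 genes, all but HLA-E. They are shown for 6 genes because these carry the differences described below: the light chain, the classical heavy chain, and the 4 neighbours, of which TAP2 fell on acute treatment while the others rose. The windows are B2M chr15:44711267-44711566 (+ strand), HLA-B chr6:31357130-31357429 (- strand), PSMB8 chr6:32843998-32844297 (- strand), TAP1 chr6:32853655-32853954 (- strand), PSMB9 chr6:32853942-32854241 (+ strand) and TAP2 chr6:32838690-32838989 (- strand), each 5′ to 3′. Capitals mark an interferon-stimulated response element (ISRE) core, a gamma-activated sequence (GAS) core or a kappaB core on either strand.
B2M: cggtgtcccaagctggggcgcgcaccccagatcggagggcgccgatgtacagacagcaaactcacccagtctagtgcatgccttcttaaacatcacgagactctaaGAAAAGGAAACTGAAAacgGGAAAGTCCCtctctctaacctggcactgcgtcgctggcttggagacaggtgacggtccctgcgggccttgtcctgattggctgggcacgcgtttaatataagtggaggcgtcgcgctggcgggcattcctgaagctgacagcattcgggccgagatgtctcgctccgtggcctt
HLA-B: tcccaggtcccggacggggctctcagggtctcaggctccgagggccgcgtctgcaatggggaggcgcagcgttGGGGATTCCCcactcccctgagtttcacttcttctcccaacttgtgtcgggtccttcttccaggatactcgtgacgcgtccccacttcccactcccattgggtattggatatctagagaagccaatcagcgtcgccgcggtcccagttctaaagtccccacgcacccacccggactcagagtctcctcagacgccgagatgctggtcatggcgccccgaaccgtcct
PSMB8: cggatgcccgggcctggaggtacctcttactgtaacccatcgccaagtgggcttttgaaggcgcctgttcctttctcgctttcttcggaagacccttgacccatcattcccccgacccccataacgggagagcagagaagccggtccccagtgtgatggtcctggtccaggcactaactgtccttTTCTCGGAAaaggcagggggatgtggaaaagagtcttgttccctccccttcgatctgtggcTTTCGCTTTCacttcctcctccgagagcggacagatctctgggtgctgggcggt
TAP1: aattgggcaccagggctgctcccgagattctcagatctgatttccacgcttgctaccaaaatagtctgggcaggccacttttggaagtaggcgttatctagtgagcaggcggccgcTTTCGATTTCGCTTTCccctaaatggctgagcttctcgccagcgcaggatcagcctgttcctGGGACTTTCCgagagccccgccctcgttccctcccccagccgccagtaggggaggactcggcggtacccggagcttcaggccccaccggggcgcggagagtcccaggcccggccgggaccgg
PSMB9: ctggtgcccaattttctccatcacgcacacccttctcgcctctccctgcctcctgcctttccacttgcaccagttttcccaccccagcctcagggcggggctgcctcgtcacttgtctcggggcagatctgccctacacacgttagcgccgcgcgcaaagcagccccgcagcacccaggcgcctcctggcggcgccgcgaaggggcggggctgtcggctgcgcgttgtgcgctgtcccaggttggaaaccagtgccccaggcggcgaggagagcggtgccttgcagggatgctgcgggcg
TAP2: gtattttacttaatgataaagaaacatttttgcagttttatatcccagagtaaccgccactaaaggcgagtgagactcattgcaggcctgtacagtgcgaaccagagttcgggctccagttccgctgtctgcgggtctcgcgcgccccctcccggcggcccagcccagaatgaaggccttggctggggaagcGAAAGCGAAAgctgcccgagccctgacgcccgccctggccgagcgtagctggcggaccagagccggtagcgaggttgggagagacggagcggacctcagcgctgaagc

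Cores were searched as letters on both strands. An ISRE core (GAAA, any 2 bases, GAAA) was found in 3.57% of 35116 RefSeq promoter windows of this length and in 6 of the 8 genes. B2M held overlapping matches from -144 to -129, with the start site at 0, TAP1 overlapping matches from -134 to -119, TAP2 a match from -58 to -49, PSMB8 from -4 to 5, HLA-F from -156 to -147 and TAPBP overlapping matches from -20 to -5. A kappaB core (GGG, any 2 bases, TT, any base, CC) was found in 5.68% of all windows and in 4 of the 8 genes, namely B2M, HLA-B (-177 to -168), TAP1 (-72 to -63) and TAPBP (-56 to -47). A GAS core (TTC, any 3 bases, GAA) was found in 7.66% of all windows and in 2 of the 8 genes, PSMB8 (-65 to -57) and a further start site of TAP1 (-189 to -181). The cyclic AMP response element core (TGACG) and the CCAAT box, which with other elements make up the SXY module of class I promoters, were each found in 5 of the 8 genes but also in 24.6% and 34.6% of all windows. TAP1 and PSMB9 run in opposite directions from neighbouring start sites, so their windows overlap at the 5′ ends, and the PSMB9 window held only the CRE core and the CCAAT box. PSMB8 and TAP1 had a further window each, and a gene was counted if any of its windows held a match, whereas the shares are of windows. The further PSMB8 window (chr6:32844630-32844929) held a CRE core but no ISRE, GAS or kappaB core. These matches describe the letters and not binding.

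Over the 11 conditions the class I genes spanned 0.94 (TAP1) to 2.70 (B2M) log2 units between the highest and lowest condition mean. R2 in drug was the highest condition for 4 of the 9 genes, HLA-B (11.21), HLA-F (9.05), PSMB8 (9.07) and PSMB9 (8.21). R1 out of drug was the lowest for 5, HLA-B (8.60), HLA-E (10.91), HLA-F (7.32), B2M (13.54) and PSMB9 (6.37). Parental RT112 given the drug for 24 h was highest for HLA-E (12.99) and TAPBP (11.94) and lowest for TAP2 (7.56). B2M was highest in the 3 RT4 conditions, with means of 16.24, 16.02 and 15.84, against 15.57 in the brightest RT112 condition, R2 in drug. Steps between neighbouring conditions were mostly within the spread of arrays: of the 10 neighbouring steps in each order, none was free of overlap for B2M, TAP1 and TAPBP, 1 for HLA-E and HLA-F, and 2 for HLA-B, TAP2, PSMB8 and PSMB9. Steps free of overlap included R2 in drug above the acute treatment for PSMB8 (lowest array 8.76 against highest 8.73) and PSMB9 (8.06 against 7.89). They also included R1 out of drug below R2 out of drug for HLA-B (highest array 8.95 against lowest 9.27) and HLA-E (11.20 against 11.23). Some of these gaps were narrow, and neither PSMB8 nor PSMB9 passed when R2 in drug was compared with the acute treatment below.

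**Figure D1:**
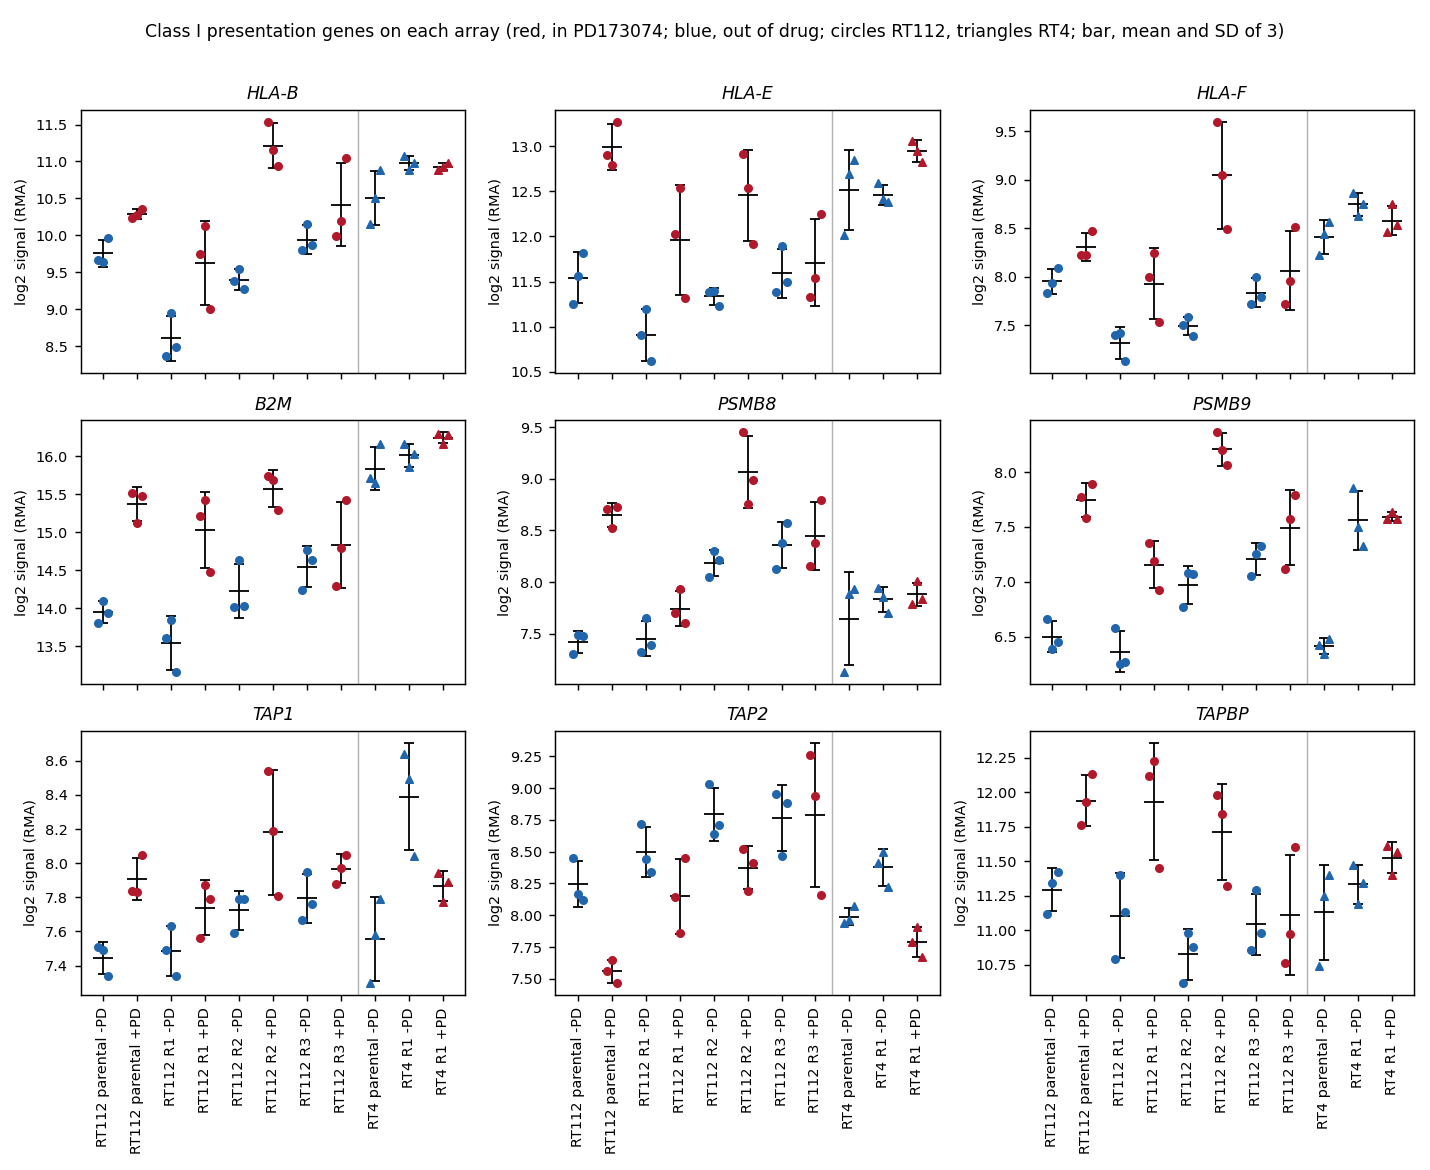
Log2 signal of each of the 9 class I presentation genes on every array (y axis) in the 11 conditions (x axis), with circles for RT112, triangles for RT4, red for cells in PD173074, blue for cells out of drug, and bars for the mean and SD of 3 arrays. HLA-B, HLA-F, PSMB8 and PSMB9 peak in R2 in drug, and TAP2 is lowest in parental RT112 treated for 24 h.

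TAP2 had the pattern least like the mean of the class I genes. Across the 11 condition means its Pearson correlation with the mean of the other 8 genes was -0.46, while the other 8 genes had correlations of 0.46 (TAPBP) to 0.91 (HLA-B) with the mean of the rest. Gene by gene, the correlation of TAP2 was -0.77 with HLA-E, -0.71 with TAPBP, -0.54 with B2M, -0.44 with HLA-F and -0.32 with HLA-B, but -0.14 with PSMB9, 0.03 with TAP1 and 0.09 with PSMB8, its neighbours. These are descriptions over 11 means that share arrays and normalisation. The arrays that stood apart did not all deviate alike. R3 in drug replicate 3 was 0.43 above its condition mean for the 8 genes and at -0.63 for TAP2, replicate 1 was at -0.35 and 0.47, and R1 in drug replicate 3 was at -0.38 and 0.30. R2 in drug replicate 1 lay above for both (0.33 and 0.15), RT4 parental replicate 1 below for both (-0.29 and -0.05), and R2 in drug replicate 3 was at -0.33 and 0.04.

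The first comparison asked how class I genes responded to 24 h of FGFR inhibition in parental RT112. Of the 9 genes, 7 rose (11.4% of all genes rose), TAP2 fell (13.1% of all genes fell) and HLA-F did not pass. The ranges of treated and untreated arrays did not overlap for any of the 9, and the median difference was 0.65 against 0.01 for all genes. The largest rises were in HLA-E, B2M, PSMB9 and PSMB8, each by over a doubling of signal. These are bulk cultures, in which a change in the share of cells that express a gene and a change in its RNA per cell cannot be told apart.

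Among the heavy chains, HLA-E was 11.25, 11.56 and 11.82 in untreated cells and 12.90, 12.79 and 13.27 in treated cells, a difference of 1.44 ± 0.18 (SE, adjusted p = 8.83e-04, 2.72-fold). Its lowest treated array lay well above its highest untreated array. HLA-B was 9.66, 9.64 and 9.97 without drug and 10.23, 10.28 and 10.36 with it, a smaller difference of 0.53 ± 0.10 (adjusted p = 0.00681), and HLA-F differed by 0.35 ± 0.10 (adjusted p = 0.0363, 0.0223 to 0.267 over 13 other settings). HLA-B passed in 6 of 13 other settings (adjusted p from 0.00298 to 0.13) and, of the 6 fits without 1 array, only in that without untreated replicate 3.

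B2M, the light chain shared by all class I molecules, was 13.81, 14.10 and 13.94 in untreated cells and 15.52, 15.12 and 15.48 in treated cells. The difference was 1.42 ± 0.13 (adjusted p = 2.66e-04, 2.68-fold), the groups were more than 1 log2 unit apart, and it passed in 13 of 13 other settings.

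Both immunoproteasome subunits rose. PSMB8, which takes the place of the chymotrypsin-like subunit, was 7.30, 7.49 and 7.48 without drug and 8.71, 8.52 and 8.73 with it (difference 1.23 ± 0.09, adjusted p = 1.26e-04, 2.35-fold). PSMB9, which takes the place of the caspase-like subunit, was 6.66, 6.39 and 6.45 without drug and 7.77, 7.58 and 7.89 with it (difference 1.25 ± 0.11, adjusted p = 2.35e-04, 2.37-fold). For both genes the treated arrays were tightly grouped and clear of the untreated ones, and both passed in 13 of 13 other settings.

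The transporter subunits moved in opposite directions. TAP1 was 7.51, 7.49 and 7.34 without drug and 7.84, 7.83 and 8.05 with it, a rise of 0.46 ± 0.09 (adjusted p = 0.00675). TAP2 was 8.45, 8.17 and 8.12 without drug and 7.56, 7.65 and 7.47 with it, a change of -0.69 ± 0.11 (adjusted p = 0.00233, 1.61-fold lower). TAPBP, the tapasin gene, was 11.12, 11.34 and 11.42 without drug and 11.76, 11.93 and 12.13 with it, a rise of 0.65 ± 0.12 (adjusted p = 0.00571). TAP1 passed in 3 of 13 other settings (adjusted p from 0.00486 to 0.0302) and in no fit without 1 array. TAPBP passed in 6 of 13 (0.00339 to 0.0384), only without treated replicate 1 among the fits without 1 array, and TAP2 passed in 9 of 13 (0.00151 to 0.0215), being lost without treated replicate 1 or 3. The 5 other distinct TAP2 probe sets were all lower, by smaller amounts (-0.56 to -0.51), and 2 of them passed. They correlated with the chosen one at 0.989 to 0.994 over the arrays and are not separate support.

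**Figure D2:**
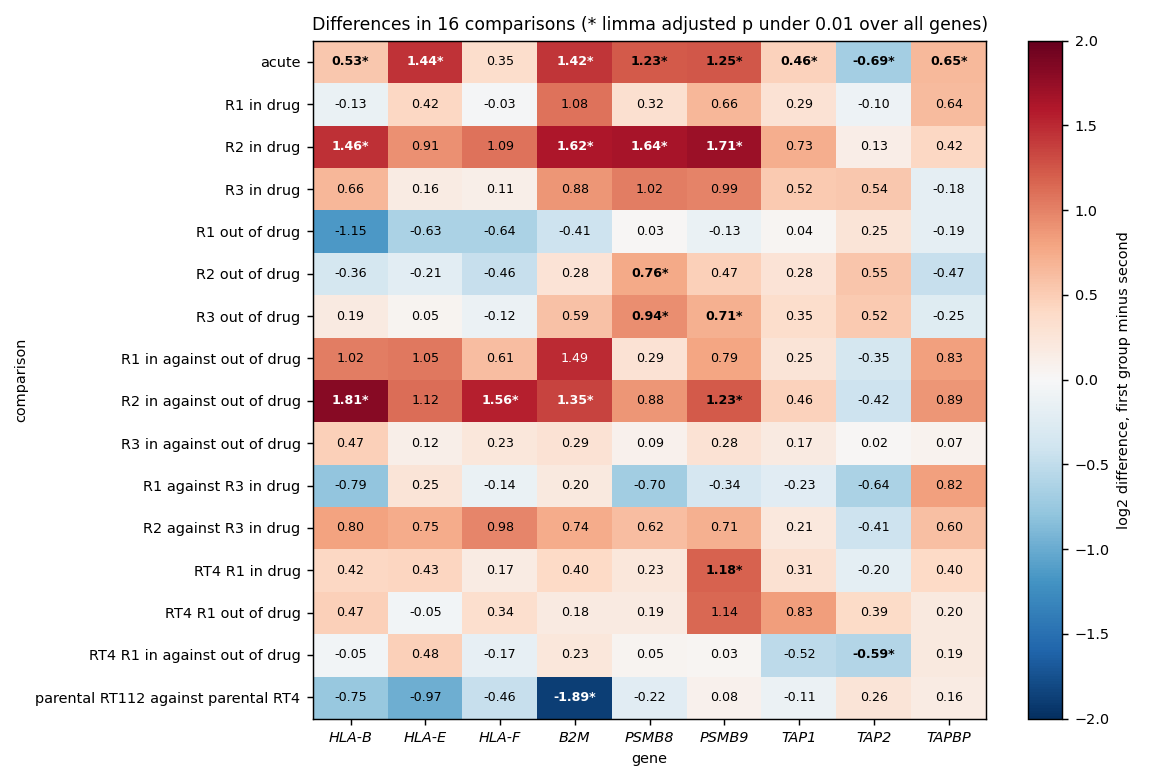
Log2 differences of the 9 genes (columns) in 16 comparisons (rows), coloured from lower to higher, with a star where the limma adjusted p over all genes was under 0.01. The acute treatment and R2 in drug carry most of the stars, and in the acute treatment TAP2 is lower while 7 of the other genes are higher with a star.

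Most other proteasome genes tested were lower on acute treatment, among them an inducible one. Of 14 proteasome partners, 2 rose and 9 fell on acute treatment (median -0.52), where 11.4% of all genes rose and 13.1% fell. Those that rose were PSMB10, the third inducible catalytic subunit (1.18 ± 0.12, adjusted p = 3.64e-04), and PSME1, a subunit of the interferon-inducible PA28 activator (0.99 ± 0.11, adjusted p = 5.55e-04). PSME2, the other subunit of that activator, fell by 0.71 (adjusted p = 8.01e-04), and POMP, a proteasome assembly factor, fell by 0.54 (adjusted p = 0.00533), both named after their values were seen. PSME3, the PA28 gamma activator, fell by 1.21 (adjusted p = 1.62e-04) and PSMA7, an alpha-ring subunit, fell by 0.96 (adjusted p = 4.57e-04). The constitutive catalytic subunits, named here for their role after their values were seen, also fell: PSMB6, the counterpart of PSMB9, by 0.87 (adjusted p = 2.25e-04), PSMB5, the counterpart of PSMB8, by 0.50 (adjusted p = 0.00704), and PSMB7, the counterpart of PSMB10, by 0.46 (adjusted p = 0.00883). In R2 in drug PSMB10 and PSME1 rose again, by 0.89 and 0.93 (adjusted p = 0.00147 and 0.00166), but PSMB5, PSMB6 and PSMB7 differed by -0.08, -0.02 and -0.24 and did not pass. In R1 in drug PSMB10 differed by 0.30, PSMB5 by -1.38, PSMB6 by -1.22 and PSMB7 by -0.68, none passing, and 3 of the 14 partners fell (PSME4, PSME3 and PSME2).

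**Figure D3:**
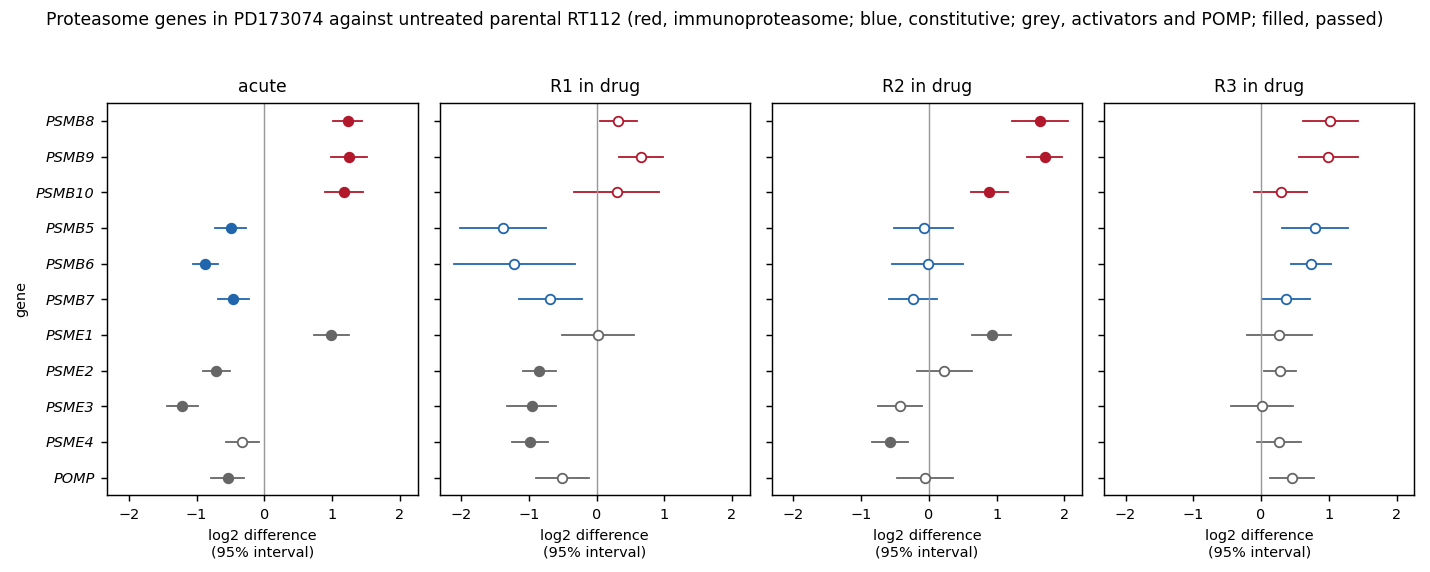
Log2 differences from untreated parental RT112 with 95% intervals (x axis) for proteasome genes (y axis) in cells given PD173074, with immunoproteasome subunits in red, constitutive ones in blue, activators and POMP in grey, and filled symbols where the adjusted p was under 0.01. After acute treatment PSMB8, PSMB9 and PSMB10 lie right of 0 and PSMB5, PSMB6 and PSMB7 left of it, whereas in R2 in drug the constitutive subunits lie near 0.

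Other parts of the pathway and related genes were read from lists. On acute treatment 11.4% of all genes rose and 13.1% fell, and a count near these shares says nothing particular about a list. Of 37 interferon-induced genes, 22 rose and 2 fell on acute treatment (median 0.79), led by IFI6 (3.99), SAMD9L (3.12), IFI16 (2.99) and GBP2 (2.63). Of 19 regulators of class I transcription, 5 rose and 2 fell, among them IRF1, an interferon-responsive activator (1.37), RFX5, which binds class I and class II promoters (1.17), USF1 (0.75) and the polycomb methyltransferase EZH2 (-1.31). Of 12 interferon receptors and kinases, 4 rose and none fell, JAK1 (1.21), JAK2 (0.93), IFNAR1 (0.82) and PTPN2 (0.63). Of 13 loading and trimming genes, 3 rose and 2 fell, with the tapasin relative TAPBPL (1.20) and the trimming peptidases ERAP1 (0.86) and ERAP2 (0.77) higher, and THOP1, a cytosolic peptidase, at -1.03. Of 17 other class I and class I-like genes, 4 rose and 4 fell, with MR1 (1.82) and HFE (1.03) higher and the stress ligands MICB (-2.27) and ULBP3 (-1.20) lower. Of 14 class II genes only CTSS (2.87) and HLA-DMA (1.79) rose, and of 15 checkpoint ligands 7 rose and 2 fell.

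The derivatives were then compared with untreated parental RT112. In R2, kept in 2 µM drug, 4 of the 9 genes rose (9.08% of all genes) and none fell (8.91% of all genes), with a median of 1.09 against -0.04. HLA-B was 11.54, 11.16 and 10.94 in R2 in drug against 9.66, 9.64 and 9.97 in parental cells (difference 1.46 ± 0.17, adjusted p = 9.61e-04, 2.74-fold). B2M was 15.74, 15.69 and 15.29 against 13.81, 14.10 and 13.94 (1.62 ± 0.14, adjusted p = 3.23e-04, 3.08-fold). For both genes every R2 array in drug was at least as high as 10.94 and 15.29, clear of all parental arrays.

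PSMB8 was 9.45, 8.76 and 8.99 in R2 in drug against 7.30, 7.49 and 7.48 (1.64 ± 0.17, adjusted p = 6.76e-04, 3.12-fold). PSMB9 was 8.36, 8.20 and 8.06 against 6.66, 6.39 and 6.45 (1.71 ± 0.11, adjusted p = 1.11e-04, 3.26-fold). All 4 genes kept their call in each of the 6 fits without 1 array. HLA-F differed by 1.09 (adjusted p = 0.0175, 0.00106 to 0.0955 over 13 other settings), TAP1 by 0.73 (0.0194, 0.000441 to 0.0926) and HLA-E by 0.91 (0.0359, 0.00468 to 0.137), and 8 genes passed without R2 in drug replicate 3, TAP2 being the exception (0.11). TAP2 differed by 0.13 ± 0.13 with all arrays (adjusted p = 0.504).

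In the same comparison, where 9.08% of all genes rose and 8.91% fell, 24 of 37 interferon-induced genes rose and 2 fell (median 1.75). They were led by IFI6 (8.52), IFITM2 (4.93), IFITM3 (4.13) and SAMD9L (4.07). Of 14 class II genes 9 rose, among them HLA-DRA (5.73), HLA-DRB1 (3.78), the invariant chain CD74 (2.92) and HLA-DMA (2.79). Of 19 regulators 7 rose and none fell, led by IRF1 (1.67), NFYB (1.09), STAT3 (1.05) and IRF2 (0.88). Checkpoint ligands rose in 7 of 15 genes, including PDCD1LG2 (3.46) and CD274 (2.83), the ligands of PD-1.

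**Figure D4:**
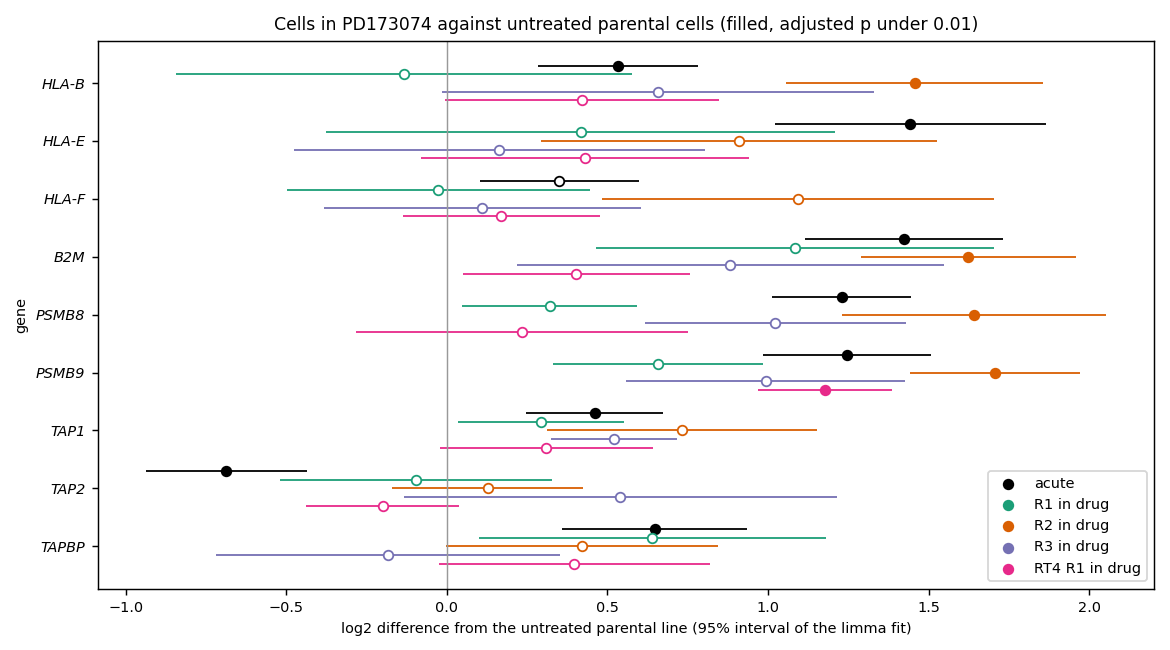
Log2 differences from untreated parental cells (x axis) of the 9 genes (y axis) for each condition in PD173074, with filled symbols where the adjusted p was under 0.01. R2 lies furthest to the right for HLA-B, B2M, PSMB8 and PSMB9, and TAP2 lies left of 0 in the acute treatment.

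Withdrawal of the drug from R2 gave the clearest contrast within a derivative. Set against R2 out of drug, R2 in drug was higher in 4 of the 9 genes (4.36% of all genes) and lower in none (5.85% of all genes), and the arrays in and out of drug did not overlap for any of the 9, TAP2 being lower in drug (-0.42, adjusted p = 0.0717, 0.0345 to 0.208 over 13 other settings). HLA-B was 9.38, 9.55 and 9.27 out of drug against 11.54, 11.16 and 10.94 in drug (1.81 ± 0.16, adjusted p = 0.00163, 3.51-fold). HLA-F was 7.50, 7.58 and 7.39 out of drug against 9.60, 9.05 and 8.49 in drug (1.56 ± 0.26, adjusted p = 0.00755, 2.94-fold). The 3 R2 arrays in drug were spread over more than 1 log2 unit for HLA-F, replicate 1 being highest and replicate 3 lowest.

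B2M was 14.01, 14.64 and 14.03 out of drug (1.35 ± 0.21, adjusted p = 0.00577) and PSMB9 6.77, 7.08 and 7.07 (1.23 ± 0.12, adjusted p = 0.00201, 2.35-fold). Leaving out 1 array changed the number of genes passing to 2, 3 and 0 (without R2 out of drug replicate 1, 2 and 3) and to 1, 1 and 6 (without R2 in drug replicate 1, 2 and 3). The median over the 9 genes was 1.12 against -0.01 for all genes. In the same comparison, where 4.36% of all genes rose and 5.85% fell, 22 of 37 interferon-induced genes rose and none fell (median 1.44). Of 14 class II genes 7 rose and none fell. Among other class I genes HLA-H (1.38), HLA-C (1.08) and HLA-J (1.07) were higher and MICB (-2.74) lower.

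Out of drug, R2 differed from parental cells in PSMB8, which was 8.05, 8.30 and 8.21 against 7.30, 7.49 and 7.48 (0.76 ± 0.09, adjusted p = 0.00365, 1.70-fold). It was the only 1 of the 9 genes to rise (4.18% of all genes) and none fell (2.69% of all genes). The call was kept in 7 of 13 other settings (adjusted p from 0.00277 to 0.0334) and, without 1 array, only when R2 out of drug replicate 1 was left out. HLA-F was 7.50, 7.58 and 7.39 against 7.83, 7.94 and 8.09 in parental cells (-0.46 ± 0.09, adjusted p = 0.0170, 0.0135 to 0.191 over 13 other settings), and its groups did not overlap.

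In R1, kept in 1 µM drug, none of the 9 genes passed by limma against parental cells, where 11.7% of all genes passed in either direction, although 5 had an unadjusted p under 0.05 and the methods' t-test at its unadjusted level called 2. B2M was 15.21, 15.42 and 14.47 in R1 in drug against 13.81, 14.10 and 13.94 (1.08 ± 0.25, adjusted p = 0.0277, 0.000747 to 0.101 over 13 other settings), without overlap. PSMB9 was 7.35, 7.19 and 6.93 against 6.66, 6.39 and 6.45 (0.66 ± 0.13, adjusted p = 0.0178, 0.00265 to 0.0727), also without overlap. HLA-B was 9.75, 10.12 and 9.0 against 9.66, 9.64 and 9.97 (-0.13 ± 0.29, adjusted p = 0.802), with the parental arrays inside the range of R1. Replicate 3 of R1 in drug was lowest for B2M, PSMB9 and HLA-B, and without it 3 genes passed, B2M (1.37, adjusted p = 7.47e-04), TAPBP (0.88, 0.00266) and PSMB9 (0.77, 0.00417). The fibroblast marker list, with LUM its brightest gene, was highest in R1 in drug. It was not particular to R1: 4 of its 10 markers rose and 0 fell against parental cells in R1 in drug and likewise in R2 in drug. The part of these markers in the class I values was not tested.

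R1 in drug against R1 out of drug also had 0 of 9 genes passing by limma (5.68% of all genes in either direction), with 6 at an unadjusted p under 0.05 and 2 by the methods' t-test at its unadjusted level. B2M was 13.61, 13.85 and 13.16 out of drug, a difference of 1.49 ± 0.29 (adjusted p = 0.0193, 0.000361 to 0.102 over 13 other settings). Without R1 in drug replicate 3, 6 genes passed, HLA-B (1.33), HLA-E (1.37), HLA-F (0.81), B2M (1.78), TAPBP (1.07) and PSMB9 (0.90). Out of drug, R1 had 0 of 9 genes passing against parental cells by limma (1.45% of all genes), 3 at an unadjusted p under 0.05 and 2 by the methods' t-test. HLA-B was 8.37, 8.95 and 8.49 in R1 out of drug, below every parental array (-1.15 ± 0.17, adjusted p = 0.0118, 0.00789 to 0.112 over 13 other settings), and HLA-F was 7.40, 7.42 and 7.13 (-0.64 ± 0.12, adjusted p = 0.0219, 0.0170 to 0.119). HLA-B passed without R1 out of drug replicate 2. In R1 in drug against parental cells, where 11.7% of all genes passed in either direction, 14 of 37 interferon-induced genes rose and none fell (median 1.33). They were led by IFI6 (8.24), SAMD9L (4.42), IFIT2 (3.82) and IFITM2 (3.72), and the stress ligand MICB was at -3.63.

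R3, the culture of mixed cells, had 0 of 9 genes passing in drug by limma (1.95% of all genes in either direction), with 4 at an unadjusted p under 0.05 and 3 by the methods' t-test at its unadjusted level. PSMB8 was 8.16, 8.38 and 8.80 in R3 in drug against 7.30, 7.49 and 7.48 (1.02 ± 0.17, adjusted p = 0.0183, 5.30e-04 to 0.0869 over 13 other settings). PSMB9 was 7.12, 7.57 and 7.79 against 6.66, 6.39 and 6.45 (0.99 ± 0.18, adjusted p = 0.0237, 3.07e-04 to 0.101), and TAP1 was 7.88, 7.97 and 8.05 against 7.51, 7.49 and 7.34 (0.52 ± 0.08, adjusted p = 0.0163, 0.0147 to 0.0749). None of these 3 overlapped the parental arrays, and without R3 in drug replicate 3 PSMB8 passed (0.85, adjusted p = 0.00889).

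Out of drug, R3 had PSMB8 and PSMB9 higher than parental cells (2 of 9, against 1.76% of all genes) and no gene lower (1.42% of all genes). PSMB8 was 8.13, 8.38 and 8.57 (0.94 ± 0.12, adjusted p = 0.00599, 1.91-fold) and PSMB9 7.05, 7.25 and 7.33 (0.71 ± 0.11, adjusted p = 0.00918, 1.64-fold), both clear of the parental arrays. With the replicate number as a block, since same-numbered arrays deviated together here, PSMB8 passed (adjusted p = 0.00832) and PSMB9 did not (0.0219), so 1 gene passed. Over 13 other settings the adjusted p ran from 0.00202 to 0.0662 for PSMB8 and from 0.00661 to 0.0719 for PSMB9, and neither passed in any of the 6 fits without 1 array. R3 in drug against R3 out of drug had 0 of 9 genes passing by limma, 0 at an unadjusted p under 0.05 and 0 by the methods' t-test (0% of all genes passed by limma), and the arrays overlapped for each of the 9. PSMB8 differed by 0.09 ± 0.19 and PSMB9 by 0.28 ± 0.18.

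The derivatives in drug were set against each other. R2 was kept in 2 µM and R1 and R3 in 1 µM, so line and dose cannot be told apart where R2 was compared. No class I gene passed between R1 and R3 (4.77% of all genes in either direction; 2 at an unadjusted p under 0.05 and 1 by the methods' t-test) or between R2 and R3 (3.15% of all genes; 5 and 1). In a comparison added after the data were seen, no gene passed between R2 and R1 (0.00890% of all genes; 4 and 4), although PSMB8 was 1.32 higher in R2 (95% interval 0.85 to 1.80, adjusted p = 0.0627), PSMB9 1.05 higher (0.71 to 1.39, adjusted p = 0.0580) and HLA-B 1.59 higher (0.84 to 2.34, adjusted p = 0.0963). HLA-B in R2 was 10.94 or more on every array and in R1 10.12 or less.

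Also added after the data were seen were comparisons of long-term with acute exposure, which share the 3 acutely treated arrays. In R1 in drug PSMB8 was lower than after 24 h, at 7.70, 7.93 and 7.60 against 8.71, 8.52 and 8.73 (-0.91 ± 0.11, adjusted p = 0.00512, 1 of 9 genes lower against 4.02% of all genes, and none higher against 3.06%). Its call held without R1 in drug replicate 2 or 3 and was lost without any of the other 4 arrays, with adjusted p from 4.31e-04 to 0.0441 over 13 other settings. In R2 in drug HLA-B was 0.92 ± 0.15 higher (adjusted p = 0.00607, 0.00343 to 0.0543 over 13 other settings) and TAP2, at 8.52, 8.19 and 8.41 against 7.56, 7.65 and 7.47, was 0.81 ± 0.11 higher (adjusted p = 0.00257, 0.00197 to 0.0285). These were 2 of 9 genes higher against 5.88% of all genes, with none lower against 5.37%, and without 1 array HLA-B kept its call in 2 of 6 fits (without R2 in drug replicate 1 or 3) and TAP2 in 3 of 6 (without R2 in drug replicate 2 or 3 or acutely treated replicate 2). PSMB8 (0.41, limma adjusted p = 0.154) and PSMB9 (0.46, 0.0315) did not pass in R2 in drug against the acute treatment. In R3 in drug none of the 9 passed by limma (11.1% of all genes in either direction, 3 genes at an unadjusted p under 0.05 and 3 by the methods' t-test). HLA-E was at -1.28 ± 0.26 (adjusted p = 0.0153, 0.00152 to 0.0767) and TAP2 at 1.23 ± 0.27 (adjusted p = 0.0205, 2.67e-04 to 0.0900), and without R3 in drug replicate 3 HLA-E, TAP2 and TAPBP passed. TAP2 was lowest after 24 h of drug and higher than that in each derivative in drug, with differences of 0.59, 0.81 and 1.23 in R1, R2 and R3, of which only that of R2 passed.

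In RT4, R1 in drug had 1 gene higher than parental cells (2.53% of all genes) and none lower (3.33% of all genes). PSMB9 was 7.57, 7.64 and 7.57 in RT4 R1 in drug against 6.43, 6.34 and 6.48 in parental RT4, a difference of 1.18 ± 0.09 (adjusted p = 4.99e-04, 2.26-fold), which passed in 13 of 13 other settings. The 3 arrays in drug lay within 0.1 of each other and more than 1 log2 unit above the parental ones. PSMB8 was 7.79, 8.01 and 7.84 against 7.13, 7.88 and 7.93 (0.23 ± 0.22, adjusted p = 0.545), with overlap. On the other lists UBD, the ubiquitin-like modifier FAT10, rose (7.0), as did 6 of 14 class II genes. The class II genes were led by HLA-DRA (3.64), HLA-DRB1 (2.60), HLA-DPA1 (2.22) and HLA-DQB1 (1.53). Interferon-induced genes were 5 higher and 3 lower of 37 (median -0.28).

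Out of drug, none of the 9 genes passed against parental RT4 by limma (0.966% of all genes), with 5 at an unadjusted p under 0.05 and 3 by the methods' t-test. PSMB9 was 7.85, 7.50 and 7.33 (1.14 ± 0.14, adjusted p = 0.0108, 0.00111 to 0.0875 over 13 other settings), close to its levels in drug, and TAP1 was 8.64, 8.49 and 8.04 against 7.30, 7.58 and 7.79 (0.83 ± 0.19, adjusted p = 0.0612, 0.0175 to 0.216). The chosen PSMB9 probe set did not pass, but all 5 other distinct probe sets of PSMB9 did (1.05 to 1.17). Their signals correlated with the chosen one at 0.994 to 1.0 over the arrays, so they largely repeat its signal and are not separate support. In these cells 11 of 37 interferon-induced genes rose and none fell (median 1.52), CXCL10 by the most (5.21), and no class II gene passed.

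RT4 R1 in drug against out of drug gave 1 gene lower (5.74% of all genes) and none higher (4.79% of all genes). TAP2 was 7.79, 7.91 and 7.67 in drug against 8.41, 8.50 and 8.22 out of drug (-0.59 ± 0.10, adjusted p = 0.00724, 0.00545 to 0.0516 over 13 other settings), the groups being apart. Its call was kept without RT4 R1 out of drug replicate 3 and lost without each of the other 5 arrays, and none of the 5 other TAP2 probe sets passed. HLA-E was 13.06, 12.95 and 12.82 in drug against 12.59, 12.41 and 12.38 (0.48 ± 0.10, adjusted p = 0.0118, 0.00911 to 0.156), while PSMB9 differed by 0.03 ± 0.13. In the same comparison 24 of 37 interferon-induced genes were lower in drug and 2 higher (median -1.44), with CXCL10 at -9.16 and IFI27 at -6.21, and 10 of 14 class II genes were higher (median 1.12). The median of the 9 class I genes was 0.03 against 0.01 for all genes.

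**Figure D5:**
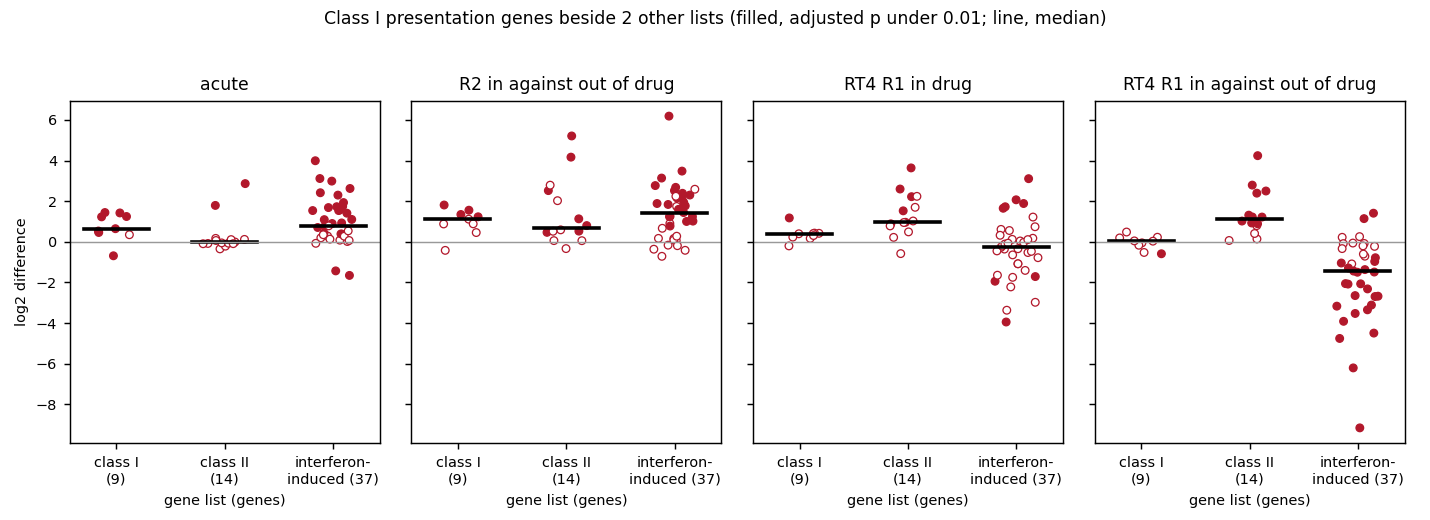
Log2 differences (y axis) of the 9 class I presentation genes, 14 class II genes and 37 interferon-induced genes (x axis) in selected comparisons, with filled points where the adjusted p was under 0.01 and a line at the median. In R2 in against out of drug all 3 lists have medians above 0, whereas in RT4 R1 in against out of drug the interferon-induced genes lie lower (median -1.44) and the class II genes higher (median 1.12).

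Whether the R1 derivatives of RT112 and RT4 in drug differed in their change from parental cells was tested as an interaction. None of the 9 genes passed by limma (7.76% of all genes in either direction), and 1 had an unadjusted p under 0.05. PSMB9 had changed by 0.66 in RT112 and 1.18 in RT4, a difference of -0.52 (95% interval -0.87 to -0.17, adjusted p = 0.0490, 0.0268 to 0.116 over the other settings), and B2M by 1.08 and 0.40, a difference of 0.68 (-0.004 to 1.36, adjusted p = 0.178). Without R1 in drug replicate 3 of RT112, B2M passed (0.96, adjusted p = 0.00815).

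The untreated parental lines differed in B2M. It was 13.81, 14.10 and 13.94 in RT112 against 15.71, 15.65 and 16.16 in RT4 (-1.89 ± 0.16, adjusted p = 2.22e-04, 3.71-fold lower in RT112), without overlap, and passed in 13 of 13 other settings. This was 1 of 9 genes lower in RT112 (10.1% of all genes) and none was higher (8.68% of all genes). HLA-E differed by -0.97 (adjusted p = 0.0228, 0.00228 to 0.107), HLA-B by -0.75 (0.0259, 0.00487 to 0.107) and HLA-F by -0.46 (0.0306, 0.00807 to 0.110), and without RT4 parental replicate 1, 5 genes passed as lower in RT112, B2M, HLA-B, HLA-E, HLA-F and PSMB8. Of their other distinct probe sets, 4 of 5 passed for HLA-B, 3 of 4 for HLA-F and 0 of 1 for HLA-E. All of these correlated with the chosen ones at 0.95 or more over the arrays, so they are not separate support. Of the lists, 18 of 37 interferon-induced genes and 7 of 14 class II genes were lower in RT112.

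By their names, the probe sets of the chromosome 6 genes are built on the main reference sequence and on alternative versions of the MHC. How the alleles of these lines or the related HLA genes hybridise to them was not tested. The other probe sets of a gene ran with the chosen one in nearly all comparisons. Over the arrays their correlation with it was 0.95 to 0.967 for HLA-F and 0.977 or more for the others. They largely repeat the same signal, so this likeness is not a separate check. HLA-F was the main exception, with its 4 other probe sets opposite in sign in R1 in drug (0.11 to 0.25) and in RT4 R1 in against out of drug (0.10 to 0.22), in neither of which it passed. Over the 11 condition means, the genes whose pattern was most like the mean of the centred class I values were TRIM21 (Pearson r = 0.952), NR1D2 (0.943), PARP12 (0.941), CAPZA2 (0.940), NMI (0.930), GSTM3 (0.924), KCNMB3 (0.920), RIT1 (0.912), UBE2L6 (0.911) and ARF5 (0.901), given as a description.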

How the data were processed

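RNA of 33 samples was hybridised to Affymetrix Human Transcriptome Array 2.0, and the authors deposited log2 values normalised with RMA in Affymetrix Expression Console, per the labels. No counts exist, and depth does not apply, so precision rests on 3 arrays per condition. The table held 70523 probe sets, of which 23781 were annotated to exactly 1 symbol. Probe sets naming several symbols (1543) were left out, and where a symbol had more than 1 probe set (479 symbols) the brightest over all arrays was taken, giving 22465 genes. Groups came from the sample titles. Each comparison was fitted on its 6 arrays with limma 3.58.1 (R 4.3.3, lmFit and eBayes) without covariates. Benjamini-Hochberg adjustment was over all 22465 genes, with a threshold of 0.01. The fit was tried on data simulated with independent noise, for the acute treatment and RT4 R1 in drug only. The RT112 against RT4 comparison of R1 was an interaction term. The class I genes and the lists were chosen with earlier results of these data known. Some listed genes were not analysed here. Named genes were all 9 class I genes, up to 4 genes of largest change per list among those that passed, and the 10 genes most like the class I mean over 11 conditions.

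The alternatives tried were a single joint fit to every array of a line, a trended and robust prior, a filter at the 30th percentile of gene means, centring on array medians, the replicate number as a block, every probe set tested, the methods' t-test (at an unadjusted p under 0.05 and with Benjamini-Hochberg adjustment at 0.01) and leaving out each array. The 13 other settings counted per gene leave out the unadjusted t-test. Deviations of same-numbered arrays all correlated at 0.107 or more only for R3 out of drug against parental RT112 (0.107 to 0.384), so its blocked value is given beside it. They were weaker at their lowest but all positive for R2 out of drug (0.068 to 0.233) and R2 in against out of drug (0.013 to 0.139). The same held for RT4 R1 in against out of drug (0.065 to 0.152) and R2 against R1 in drug (0.034 to 0.483). Comparisons of derivatives with the acute treatment and of R2 with R1 were added after seeing the data. Promoter windows and positions are from RefSeq (GRCh38.p14).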

Additional observations from a re-analysis of the deposited data

Results flagged for a closer look

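TAP1 differed in opposite directions between cells kept in drug and cells withdrawn from it in different derivatives. R2 in drug was 0.457 higher than R2 out of drug, with every array in drug above every array out of drug, and RT4 R1 in drug was at -0.523 against RT4 R1 out of drug, with every array below. Neither passed the threshold, and the difference between the derivatives was not tested.

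HLA-F out of drug lay below parental RT112 in R1 (-0.637) and R2 (-0.463) and above parental RT4 in RT4 R1 (0.337), in each case without overlap of arrays. None of these passed the threshold, and the difference between the cell lines was not tested.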

How the results depend on the processing

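No class I gene that passed changed sign under any alternative. Of 25 calls over all comparisons, 25 were kept with the filter, with every probe set tested and at the unadjusted level of the methods' t-test, 24 with the trended prior, 21 with recentred arrays, 20 with 1 fit over all arrays, 18 with the replicate block, 6 with the adjusted t-test and 86 of 150 when 1 array was left out. With 3 arrays per condition, calls close to the threshold depended on single arrays, and signals near the array medians limit what could be seen.

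With 1 fit over all arrays of a line the number of genes passing was 4 of 9 for the acute treatment, 2 for R1 in drug, 2 for R3 in drug, 1 for R1 out of drug, 4 for R1 in against out of drug, 7 for R2 in against out of drug, 2 for R1 against R3, 2 for R2 against R3, 1 for RT4 R1 out of drug and 2 for the parental lines. It was 2, 1 and 2 for R1, R2 and R3 in drug against the acute treatment and 4 for R2 against R1. Centring on array medians gave 1 for R3 out of drug and 0 for RT4 R1 in against out of drug, the filter gave 1 for R1 out of drug and 2 for RT4 R1 in against out of drug, and the trended prior gave 1 for R3 out of drug. The span of HLA-F levels over conditions was 1.73 and became 1.45 at its other probe sets.

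With the replicate number as a block, 1 gene passed for R3 out of drug, 1 for R1 in against out of drug, 2 for R2 in against out of drug, 2 for the parental lines, and 0, 0 and 1 for R1, R2 and R3 in drug against the acute treatment. Same-numbered arrays also correlated positively in some comparisons other than R3 out of drug, and whether they were handled together was not tested.

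The methods' t-test at an unadjusted p under 0.05 gave 2 for R1 in drug, 3 for R3 in drug, 2, 6 and 5 for R1, R2 and R3 out of drug, 2 and 7 for R1 and R2 in against out of drug, 1 for R1 against R3, 1 for R2 against R3, 3 for RT4 R1 out of drug, 3 for RT4 R1 in against out of drug, 4 for the parental lines, 3 for R1 and 3 for R3 in drug against the acute treatment, and 4 for R2 against R1. With Benjamini-Hochberg adjustment it gave 3 for the acute treatment, 1 for R2 in drug and 0 for R2 out of drug, R3 out of drug, R2 in against out of drug, RT4 R1 in against out of drug, and R1 and R2 in drug against the acute treatment.

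Leaving out 1 array gave 4 to 6 genes for the acute treatment, 0 to 3 for R1 in drug, 4 to 8 for R2 in drug, 0 to 1 for R3 in drug, 0 to 1 for R1 out of drug, 0 to 1 for R2 out of drug, 0 to 0 for R3 out of drug, 0 to 6 for R1 in against out of drug, 0 to 6 for R2 in against out of drug, 0 to 2 for RT4 R1 in against out of drug, 1 to 5 for the parental lines, 0 to 1, 0 to 2 and 0 to 3 for R1, R2 and R3 in drug against the acute treatment, and 0 to 1 for the difference between RT112 and RT4. The cause of these changes was not tested.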
